A study of Homo sapiens with 6 samples.

Results

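Purine and pyrimidine synthesis enzymes were followed in A375, an established human melanoma cell line, after the statin fluvastatin. The members were the 10 rows of the deposited gene table whose symbol was PPAT, GART, PAICS, ADSL, ATIC, IMPDH1, IMPDH2, CAD, UMPS or CTPS1, out of 29790 genes. All 10 symbols stood on 1 row each, and all 10 were among the 14344 genes tested. The control group was 3 libraries of untreated A375 cells (control replicates 0, 1 and 2), and the treated group was 3 libraries of A375 cells given 3 µM fluvastatin for 24 h (fluvastatin replicates 0, 1 and 2). All 6 libraries came from the same line in serum-containing medium, with controls grown alongside, and the comparison asks which transcripts differ after the drug. The labels speak of triplicates but do not name separate cultures, and a p-value therefore weighs the scatter of 3 libraries per group that may be technical in part. Values of a gene are given in the order of replicates 0, 1 and 2.

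Cells make purines by building the ring stepwise on phosphoribosyl pyrophosphate (PRPP), a ribose donor, from glutamine, glycine, aspartate, carbon dioxide and folate-bound formyl groups. The product, inosine monophosphate (IMP), then branches to AMP and GMP. The pyrimidine ring is made as orotate, joined to PRPP and turned into UMP, from which UTP and CTP follow. Proliferating cells draw on both routes for RNA and DNA, whereas salvage enzymes recycle ready-made bases and nucleosides. The transcription factor MYC is a known activator of many of these genes, and neural crest cells and melanoma are known to be sensitive to block of the pyrimidine route. Statins inhibit HMG-CoA reductase of the mevalonate pathway, which is not a step of either route.

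Values were read as FPKM, fragments scaled to transcript length and to the mapped fragments of the library, so levels can be compared between genes. On that reading each value is a share of its library rather than an amount per cell. Any further rescaling between libraries is not given in the sources used here. In RNA from a whole culture, fewer cells that express a gene and less RNA per cell cannot be told apart. A gene is said to have risen or fallen where limma on log2(FPKM + 1) gave a Benjamini-Hochberg adjusted p below 0.05 over all genes tested. Log2 fold changes and their standard errors (SE) are on that scale, fluvastatin minus control, and folds are ratios of mean FPKM. From the steps between low values, the libraries' depths relative to control replicate 0 were 0.97 to 1.18 for the other controls and 1.27 to 1.51 with fluvastatin, so every treated library was deeper than every control. Of the 8 melanocyte markers examined, SOX10 had 20.1 to 75.4 FPKM and MITF 6.10 to 7.77 FPKM over the 6 libraries. PMEL and DCT stayed below 1 FPKM, and MLANA and TYR had no values. Of 3 markers of dedifferentiated melanoma, AXL had means of 335 and 318 FPKM and did not pass, NGFR rose from 16.75 to 25.8 FPKM, and SOX9 fell from 41.85 to 24.1 FPKM. The summed level of the endothelial (3) and epithelial (2) markers was at most 0.209 FPKM per list in any library. CD14, the 1 leukocyte marker of 3 with values, was at most 0.238 FPKM. Other marker sums differed between the groups. The summed melanocyte markers were at 28.3 to 33.35 FPKM in the controls and 74.1 to 83.9 FPKM with fluvastatin, and SOX10 made up nearly all of that difference, with means of 23.3 and 72.0 FPKM. MITF (7.18 and 6.68 FPKM, not passed), PMEL (0.593 and 0.395) and S100A1 (0.460 and 0.310) had lower means with fluvastatin. S100B (0.119 and 0.363) and DCT (0.0278 and 0.0285) had higher ones, and of these markers only MITF was tested. Fibroblast markers summed to 9.31 to 12.8 and 5.14 to 7.38 FPKM, and keratinocyte markers to 0.774 to 0.884 and 4.25 to 6.25 FPKM. Within these lists only SOX10, MITF and S100A1 of 6 melanocyte, COL1A1 of 4 fibroblast and KRT14 of 2 keratinocyte markers with values reached 1 FPKM, and their part in the members' values was not tested.

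PPAT and PAICS are shown at sequence level because these 2 members lie head to head and share 1 promoter region. Their annotated starts are 126 bases apart on chromosome 4 in GRCh38, with PPAT on the minus strand (56393362 to 56435615) and PAICS on the plus strand (56435741 to 56464579). The stretch between them that no GENCODE exon covers is chr4:56435616-56435740, given on the PAICS strand from RefSeq's GRCh38.p14 promoter window. CAD, the pyrimidine enzyme with the lowest adjusted p after CTPS1, is shown for comparison as chr2:27217179-27217368 on its plus strand, the exon-free bases before its RefSeq start. Capitals mark GC boxes, the letters GGGCGG on either strand.
PPAT-PAICS: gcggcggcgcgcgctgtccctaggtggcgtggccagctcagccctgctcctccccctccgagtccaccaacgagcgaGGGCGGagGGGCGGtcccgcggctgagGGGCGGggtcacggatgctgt
CAD: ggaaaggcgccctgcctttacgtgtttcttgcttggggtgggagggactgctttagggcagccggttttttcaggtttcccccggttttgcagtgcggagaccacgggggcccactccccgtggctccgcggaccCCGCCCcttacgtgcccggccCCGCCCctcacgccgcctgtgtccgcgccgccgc
The PPAT-PAICS stretch holds 3 GC boxes and the CAD stretch 2. RefSeq windows of 250 bases before to 50 after a start were found for 8 of the 10 members, in 13 windows, and ADSL and IMPDH2 had none. Both strands were searched, and a gene counted where any of its windows matched. The GC box was present for 7 of the 8 members and 48.3% of all 27305 genes with a window. The E-box CACGTG, the preferred site of MYC with MAX, was present for 3 of the 8 (PPAT, PAICS and ATIC) and 8.77% of all genes. PPAT and PAICS share 1 of these matches, which begins at base 41 of PAICS, counted from its RefSeq start, and ATIC has 2. The CCAAT box was present for 2 members (GART and CAD) and 39.7% of genes, and the E2F letters TTTCCCGC or TTTGGCGC for 1 (GART) and 2.75%. The sterol regulatory element TCACNCCAC, bound by SREBP, matched 0 of the 8 members and 1.39% of genes. A match describes the letters in the window and shows no binding.

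Transcripts of both routes were lower after fluvastatin. Of the 10 members, 9 fell, 0 rose and 1 (IMPDH1) did not pass, where 13.6% of all genes tested fell, 14.1% rose and 27.7% passed in either direction. With limma, 0 members were higher at an unadjusted p below 0.05 either. In all 10 members every fluvastatin library lay below every control, which held for 22.9% of the genes tested. The opposite, every fluvastatin library above every control, held for 21.9%, and the groups were apart in either direction in 44.8%. The median log2 fold change was -0.63 over the members and -0.01 over all genes tested. The members' values added up to 1324, 1328 and 1277 FPKM in the controls and to 826.5, 897 and 874 FPKM with fluvastatin, so the treated mean was 66.1% of the control mean. With 1 library left out at a time, 7 or 8 members fell, and the count was 7 when leaving out control replicate 0 or 1, or fluvastatin replicate 0 or 2. With each library's estimated depth as a covariate, which is nearly the same split as the treatment, 0 members passed with limma. In that limma fit 7 members had an unadjusted p below 0.05, as did 2738 of the 14344 genes tested. All 10 estimates stayed below 0, from -0.38 ± 0.26 (SE) for IMPDH1 to -1.02 ± 0.19 for CTPS1. Depth and treatment cannot be told apart in these libraries.

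**Figure D1:**
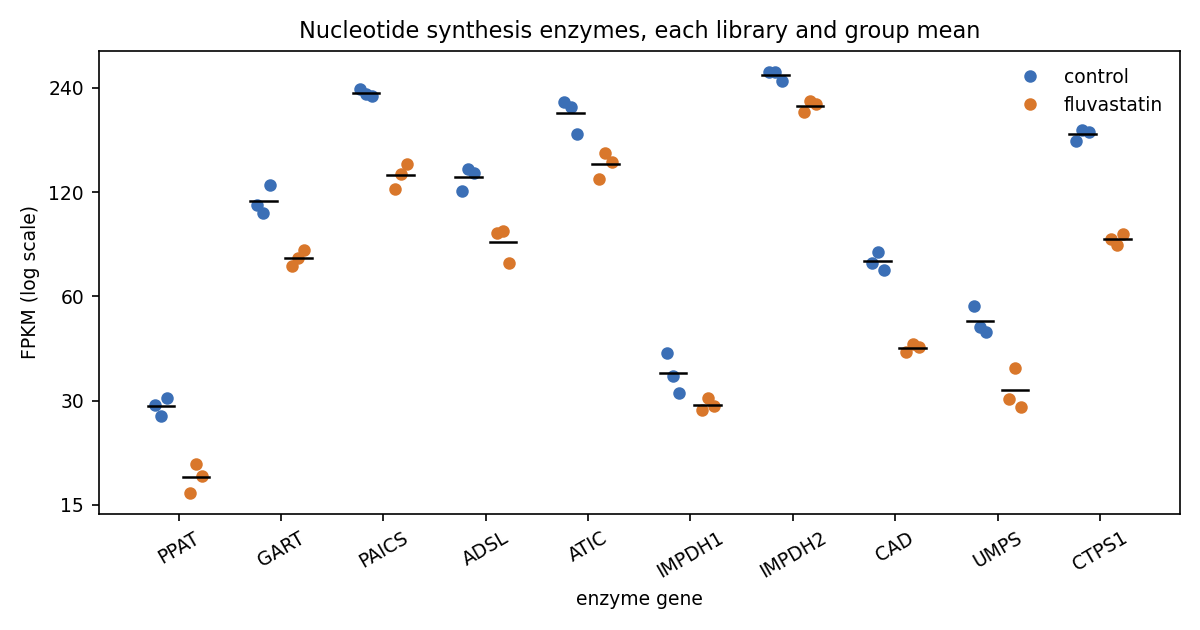
FPKM on a log axis for the 10 enzyme genes, with 1 point per library (3 control, 3 fluvastatin) and a black bar at each group mean. In every gene the fluvastatin points lie below the control points, by the widest gap in CTPS1 and with the groups nearly touching in IMPDH1.

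In the purine route, 6 of 7 members fell, and 4 to 5 did with 1 library left out. PPAT, which commits PRPP to purine synthesis, was at 29.2, 27.0 and 30.5 FPKM in the controls and at 16.3, 19.7 and 18.2 FPKM with fluvastatin. The highest treated library was at 72.9% of the lowest control. PPAT fell 1.602-fold, from 28.9 ± 1.77 to 18.05 ± 1.715 FPKM (SD, n = 3 each), with a log2 fold change of -0.65 ± 0.10 (SE; limma adjusted p = 0.00602). It had the lowest level of the 10 members in both groups.

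GART, a trifunctional enzyme of the early and middle steps, was at 110.0, 105 and 126 FPKM in the controls and at 73.7, 77.7 and 81.5 FPKM with fluvastatin. The groups were apart, and the controls were the more scattered. GART fell 1.46-fold (log2 fold change -0.54 ± 0.10, limma adjusted p = 0.0109). It lies on chromosome 21 (33503931 to 33543491, minus strand), and 275 of its exonic bases overlap SON, an RNA-binding splicing cofactor read from the opposite strand. The strand setting of the authors' quantification is not given in the sources used here, so reads in that overlap cannot be assigned. SON itself was at 79.1 ± 8.07 and 67.5 ± 7.83 FPKM (limma adjusted p = 0.223).

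PAICS, which carries out the carboxylation and the aspartate addition after the imidazole ring closes, was at 238, 231 and 227 FPKM in the controls and at 122, 136 and 145 FPKM with fluvastatin. The 3 controls lay close together and every treated library was far below them, the highest at 63.8% of the lowest control. PAICS fell 1.73-fold, from 232 ± 5.40 to 134 ± 11.45 FPKM, with a log2 fold change of -0.79 ± 0.09 (limma adjusted p = 0.00235). Its head-to-head partner PPAT differed from it in level, at 28.9 FPKM in the controls, and both fell.

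ADSL, which releases fumarate in the step to AICAR (the intermediate that ATIC takes up) and again on the way to AMP, was at 121, 140.0 and 136 FPKM in the controls and at 91.4, 92.6 and 75.01 FPKM with fluvastatin. Fluvastatin replicate 2 was the lowest library. ADSL fell 1.53-fold (log2 fold change -0.61 ± 0.12, limma adjusted p = 0.0117). Its exons share 1344 bases with AL022238.4, a protein-coding gene model on the same strand that had no values.

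ATIC, which closes the purine ring to IMP, was at 219, 212 and 177 FPKM in the controls and at 131, 156 and 147 FPKM with fluvastatin. Control replicate 2 was the lowest control and still above all treated libraries. ATIC fell 1.4-fold (log2 fold change -0.48 ± 0.12, limma adjusted p = 0.0268). Leaving out control replicate 0 or 1, or fluvastatin replicate 0 or 2, gave an adjusted p of 0.0696 to 0.0864, and over all alternatives it ran from 0.00907 to 0.161.

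IMPDH1 and IMPDH2 are isoenzymes of the rate-limiting oxidation of IMP toward GMP, IMPDH2 being the form usually abundant in proliferating cells. IMPDH2 was at 267, 266 and 251 FPKM in the controls and at 204, 219.8 and 216 FPKM with fluvastatin, the highest level of any member in both groups. It fell 1.23-fold to 81.6% of the control mean (log2 fold change -0.29 ± 0.08, limma adjusted p = 0.041). Leaving out any 1 of the 6 libraries ended that call (0.0536 to 0.129, over a range of 0.0132 to 0.284 for all alternatives). IMPDH1 was at 41.1, 35.3 and 31.5 FPKM in the controls and at 28.2, 30.5 and 28.9 FPKM with fluvastatin. The highest treated library reached 96.8% of the lowest control, so the groups were only just apart. IMPDH1 had a log2 fold change of -0.285 ± 0.116 and did not pass (limma adjusted p = 0.115, 0.0566 to 0.47 over the alternatives). Annotated pseudogenes named after PPAT, PAICS and IMPDH1 had values in 12 cases, at most 1.87 FPKM, and near-identical copies may share reads with their parent genes.

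All 3 pyrimidine members fell, and their summed level was 53.6% of the control mean, against 69.9% for the purine members. Such sums weigh abundant genes most. The log2 fold changes of the routes overlapped, from -1.002 to -0.654 in pyrimidine and from -0.787 to -0.285 in purine members. The difference between the routes was not tested. CAD, the trifunctional enzyme that opens the route from glutamine, was at 74.8, 80.9 and 71.6 FPKM in the controls and at 41.55, 43.7 and 42.8 FPKM with fluvastatin. The treated libraries lay within a narrow band far below the controls. CAD fell from 75.7 ± 4.725 to 42.7 ± 1.06 FPKM (SD, n = 3 each), which is 1.775-fold, with a log2 fold change of -0.81 ± 0.09 (limma adjusted p = 0.00162). Only 2.38% of the genes tested had a lower log2 fold change.

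UMPS, which joins orotate to PRPP and decarboxylates it to UMP, was at 56.3, 49.0 and 47.45 FPKM in the controls and at 30.4, 37.3 and 28.7 FPKM with fluvastatin. Fluvastatin replicate 1 stood above the other 2 treated libraries. UMPS fell 1.585-fold (log2 fold change -0.65 ± 0.13, limma adjusted p = 0.0125).

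CTPS1, which makes CTP from UTP and is the form known for lymphocyte proliferation, was at 169, 182 and 179 FPKM in the controls and at 87.7, 84.2 and 91.0 FPKM with fluvastatin. It had the lowest log2 fold change and the lowest adjusted p of the 10 members. CTPS1 fell 2.01-fold, from 176.5 ± 6.93 to 87.7 ± 3.40 FPKM, with a log2 fold change of -1.002 ± 0.083 (limma adjusted p = 7.38e-04). With 1.10% of the tested genes below it, CTPS1 ranked 159 from the lowest log2 fold change of 14344.

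Levels per length ran in the controls from IMPDH2 through PAICS, ATIC, CTPS1, ADSL, GART, CAD, UMPS and IMPDH1 to PPAT. Neighbours in that order were apart except ATIC and CTPS1, and ADSL and GART, whose ranges overlapped. With fluvastatin ATIC stood before PAICS, though their ranges overlapped (131 to 156 and 122 to 145 FPKM). CTPS1 moved from clearly above ADSL to a level that overlapped it, at 84.2 to 91.0 and 75.01 to 92.6 FPKM, and ADSL overlapped GART again. UMPS and IMPDH1 also came to overlap, at 28.7 to 37.3 and 28.2 to 30.5 FPKM. Among the treated libraries replicate 0, the shallowest of these, was the lowest in 7 of 10 members, and replicate 1, the deepest, was the highest in 7. The FPKM sum over all genes was also lowest in treated replicate 0 (688939.4) and highest in treated replicate 1 (729564.0). How often this order held over all genes tested was not computed, and its cause was not tested.

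Most of the remaining enzymes of the routes fell as well. Of 5 tested, 4 fell and 0 rose, with a median of -0.57, and with 1 library left out 2 to 3 fell, the count being 2 when leaving out fluvastatin replicate 1. PFAS, the amidotransferase between the GART steps, was at 86.9, 88.1 and 91.2 FPKM in the controls and at 47.9, 34.2 and 44.0 FPKM with fluvastatin. It fell 2.11-fold (log2 fold change -1.07 ± 0.13, limma adjusted p = 0.00274), an estimate below that of any member. PFAS was above CTPS1 without fluvastatin replicate 1 (-0.936 and -0.973) and with depth as a covariate (-0.756 and -1.018). In the other alternatives PFAS stayed below CTPS1. GMPS, which aminates XMP to GMP, fell 1.49-fold from 123 ± 3.97 to 82.4 ± 6.405 FPKM (limma adjusted p = 0.00641). ADSS, which starts the AMP branch, fell 1.27-fold (limma adjusted p = 0.0255), a call lost when leaving out any single control, or fluvastatin replicate 0 or 1 (0.057 to 0.0829, over a range of 0.0111 to 0.481). DHODH, the mitochondrial enzyme that makes orotate, was at 11.1, 10.8 and 12.8 FPKM and then at 8.62, 6.95 and 6.84 FPKM. DHODH fell 1.55-fold (limma adjusted p = 0.0147), a call lost when leaving out fluvastatin replicate 1 or 2 (0.0508 to 0.0515, over a range of 0.00616 to 0.574). CTPS2, the isoenzyme of CTPS1, was at 7.66, 9.55 and 9.67 FPKM and at 6.42, 9.07 and 9.01 FPKM, with overlapping groups (limma adjusted p = 0.584). Of the 15 enzymes of the routes, members included, 13 fell, and 10 to 11 did with 1 library left out.

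**Figure D2:**
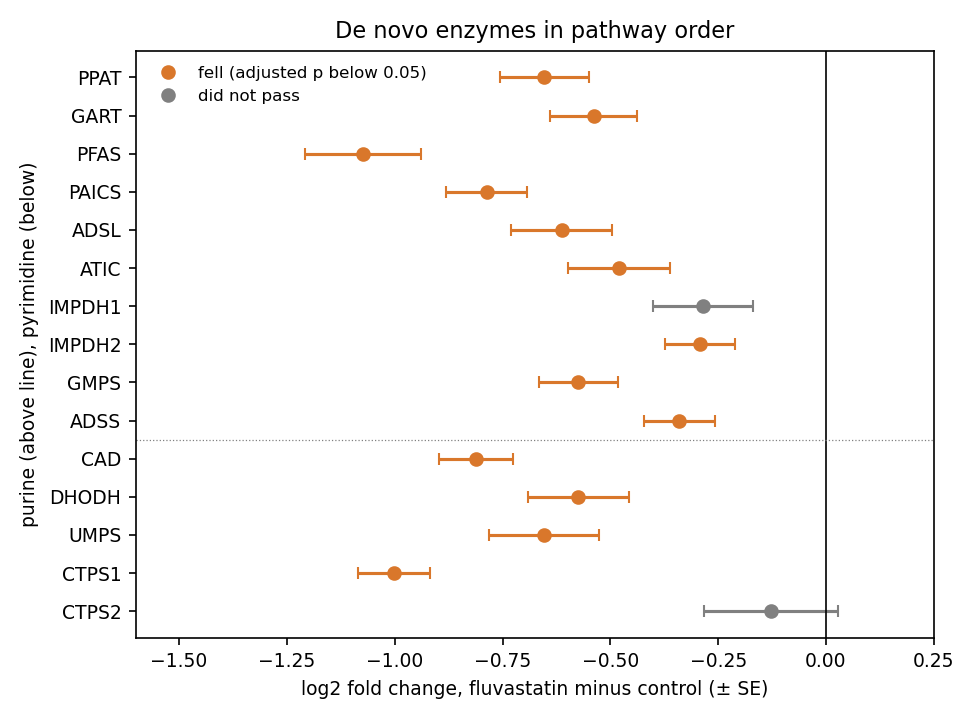
Log2 fold change (fluvastatin minus control, bars ± SE, n = 3 per group) for the 15 enzymes in pathway order, purine above the dotted line and pyrimidine below it. Orange marks the 13 enzymes that fell and grey the 2 that did not pass, IMPDH1 and CTPS2, and all 15 estimates lie below 0.

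Isoenzyme ratios within a library do not depend on its scaling, and 3 were compared by a two-sided exact permutation test, whose smallest possible p for 3 against 3 is 0.1. CTPS1 to CTPS2 was 22.03, 19.05 and 18.5 in the controls and 13.7, 9.29 and 10.1 with fluvastatin, with no overlap. The difference of the log2 ratios, fluvastatin minus control, was -0.866, with exact p = 0.1 and 0.3 after Benjamini-Hochberg adjustment over the 3 ratios. IMPDH2 to IMPDH1 was 7.33 ± 0.759 in the controls and 7.31 ± 0.14 with fluvastatin (SD, n = 3 each, exact p = 1), the groups overlapping. PRPS1 to PRPS2, the enzymes that make PRPP, was 0.583 ± 0.0807 and 0.604 ± 0.0396 (n = 3 each, exact p = 0.9).

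**Figure D3:**
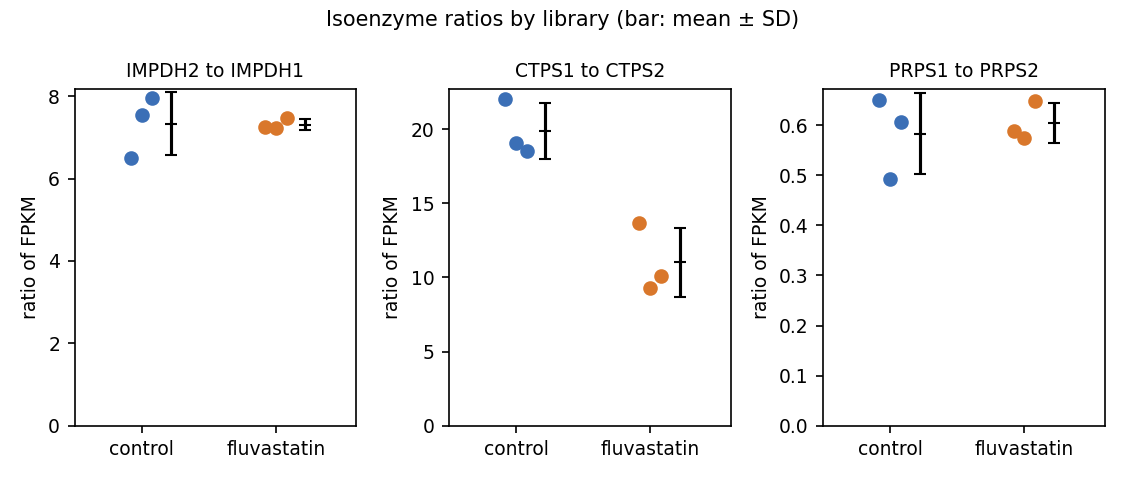
Ratio of FPKM between isoenzymes in each library, control in blue and fluvastatin in orange, with the mean ± SD (n = 3) beside the points. The CTPS1 to CTPS2 ratio is 18.5 or more in the controls and 13.7 or less with fluvastatin (exact p = 0.1, the smallest possible), while the points of the other 2 ratios overlap between groups.

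Of 4 genes for PRPP synthesis, 2 fell, 0 rose and 2 did not pass. Both catalytic PRPP synthetases fell, PRPS1 1.74-fold from 33.8 ± 3.16 to 19.4 ± 1.90 FPKM (limma adjusted p = 0.00473) and PRPS2 1.82-fold from 58.3 ± 2.89 to 32.1 ± 1.016 FPKM (limma adjusted p = 0.00134). Their regulatory partners did not pass, PRPSAP1 being at 31.9 and 30.65 FPKM and PRPSAP2 at 28.8 and 23.6 FPKM. Among 9 folate enzymes, which carry the formyl and methyl groups, 5 fell and 1 rose, and 2 to 5 fell with 1 library left out, the count being 2 when leaving out control replicate 1 or 2, or fluvastatin replicate 0 or 1, and 3 without fluvastatin replicate 2. MTHFD1, the cytosolic source of formyl folate for purines, fell 1.499-fold (limma adjusted p = 0.00516) and SHMT1 1.59-fold (0.00691).

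Of 10 enzymes that make or hydrolyse DNA precursors, 6 fell and 0 rose, and 4 to 5 fell with 1 library left out. TYMS, which makes dTMP, fell 1.80-fold from 232 ± 14.7 to 129 ± 10.9 FPKM (limma adjusted p = 0.00242). RRM2, the small subunit of ribonucleotide reductase, fell 1.56-fold (limma adjusted p = 0.00284), DCTPP1, a dCTP pyrophosphatase, 1.67-fold (0.00704), and DTYMK, the dTMP kinase, 1.555-fold (0.0081).

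Salvage enzymes went both ways. Among 15, 2 rose, 3 fell and 10 did not pass the test, with a median of 0.05 on the log2 scale. Over all genes tested 14.1% rose and 13.6% fell, so these counts are near the shares of genes at large. UCK2, a uridine-cytidine kinase, fell 1.61-fold from 65.9 ± 1.205 to 40.9 ± 0.586 FPKM (limma adjusted p = 0.00193). HPRT1, which recovers hypoxanthine and guanine, fell 1.3-fold (limma adjusted p = 0.0249), while ADK, the adenosine kinase, rose 1.298-fold (0.0372) and TK2, the mitochondrial thymidine kinase, 1.495-fold (0.0217). These 3 calls were lost with some libraries left out. For HPRT1 these were any control or fluvastatin replicate 0 or 1 (0.052 to 0.0845, over a range of 0.00883 to 0.398). For ADK they were control replicate 0 or 1 or any fluvastatin library (0.0696 to 0.109, over a range of 0.0174 to 0.268), and for TK2 control replicate 0 or fluvastatin replicate 0 or 1 (0.0528 to 0.0689, over a range of 0.00983 to 0.511). The counts with 1 library left out were 1 to 2 that fell and 0 to 3 that rose, with 1 that fell when leaving out control replicate 0 or 1, or fluvastatin replicate 0 or 1. The difference between the salvage and the synthesis lists was not tested.

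Nucleotide kinases gave 3 of 13 that fell and 0 that rose, with a median of -0.07, where 13.6% of all genes tested fell. NME1, a nucleoside diphosphate kinase, fell 1.45-fold (limma adjusted p = 0.00666). NME4 fell 1.38-fold (limma adjusted p = 0.0426), a call lost when leaving out control replicate 0 or 1, or fluvastatin replicate 0 or 2 (0.102 to 0.128, over a range of 0.0184 to 0.128), and AK1 was at 42.1 and 52.85 FPKM (0.086). Of 15 genes of breakdown and interconversion 2 rose and 2 fell, with a median of -0.02, near the 14.1% and 13.6% of all genes tested. NT5E, the ectoenzyme CD73 that makes adenosine outside the cell, rose 1.84-fold from 76.7 ± 3.19 to 141 ± 11.3 FPKM (limma adjusted p = 0.00174). GMPR2, which returns GMP to IMP, rose 1.48-fold (limma adjusted p = 0.0247), a call lost when leaving out control replicate 0 or 1, or fluvastatin replicate 1 or 2 (0.0706 to 0.0771, over a range of 0.00931 to 0.356). AMPD2, the AMP deaminase, fell 1.31-fold (limma adjusted p = 0.0337), lost when leaving out any control, or fluvastatin replicate 1 or 2 (0.0649 to 0.0999, over a range of 0.0177 to 0.543). DPYD, which degrades uracil, fell 1.26-fold (limma adjusted p = 0.0384), lost when leaving out any 1 library (0.0546 to 0.108, over a range of 0.0241 to 0.662). With 1 library left out, 0 to 1 of this list fell and 1 to 2 rose, the 1 that fell being seen only without fluvastatin replicate 0, and 1 rose without control replicate 1 or fluvastatin replicate 1 or 2.

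**Figure D4:**
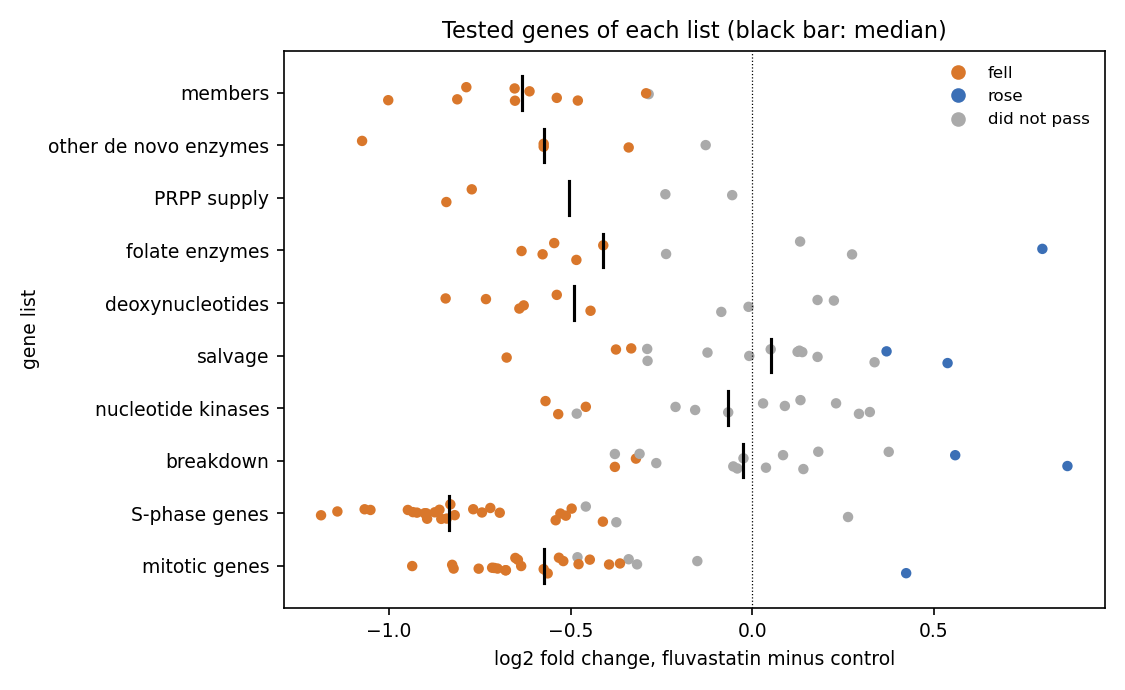
Log2 fold change (fluvastatin minus control) of every tested gene in 10 lists, with 1 point per gene and a black bar at each list's median. The members and the replication genes lie almost wholly below 0, with medians of -0.63 and -0.84, whereas salvage and breakdown genes scatter around 0, with medians of 0.05 and -0.02.

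Replication genes moved with the members. Of 28 S-phase genes tested, 25 fell and 0 rose, with a median of -0.84, and their summed level was 1814 to 1844 FPKM in the controls and 979 to 1029 FPKM with fluvastatin. UNG, a uracil DNA glycosylase, and the helicase subunits MCM3, MCM4 and MCM6 had log2 fold changes of -1.19, -1.05, -0.95 and -0.93. Of 25 mitotic genes 20 fell and 1 rose, with a median of -0.57, and their sum was 2418 to 2602 and then 1631 to 1879 FPKM. The kinases AURKA, AURKB and BUB1 and the cyclin CCNA2 had log2 fold changes of -0.71, -0.65, -0.72 and -0.82. With 1 library left out, 20 to 24 S-phase genes and 15 to 20 mitotic genes fell. Without control replicate 1 or 2 or any 1 fluvastatin library, 0 mitotic genes rose. The shares over all genes tested were 13.6% that fell and 14.1% that rose. How far fewer cycling cells had a part in the members' lower levels was not tested.

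MYC was at 23.7, 28.6 and 31.6 FPKM in the controls and at 17.9, 18.6 and 16.4 FPKM with fluvastatin, with no overlap. It fell 1.59-fold (log2 fold change -0.63 ± 0.12, limma adjusted p = 0.0129). Its DNA-binding partner MAX was at 31.2 ± 4.41 and 30.6 ± 1.46 FPKM (limma adjusted p = 0.915), and MYCN stayed below 0.1 FPKM. MXD1 and MNT, which compete with MYC for MAX, rose 1.91-fold (limma adjusted p = 0.00629) and 1.497-fold (0.0123). MGA, another MAX partner, fell 1.305-fold (limma adjusted p = 0.0414), a call lost when leaving out any 1 library (0.0534 to 0.118, over a range of 0.0252 to 0.541). Of the 10 genes of this network tested, 2 rose and 2 fell, against 1 that fell and 2 to 3 that rose with any 1 library left out. Over all genes tested 14.1% rose and 13.6% fell.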

How the data were processed

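RNA-seq of 6 A375 libraries was analysed from 1 deposited table of gene values. Its header gives no unit. The deposited values were read as FPKM of the authors, since the submitters' processing notes name STAR, Cufflinks, Cuffdiff and hg38. Versions, annotation release, strand setting and rescaling between libraries are not given in the sources used here. FPKM holds no counts, so the counting error of a value is unknown. Relative depth came from the commonest ratio of low values between libraries. With the lowest value of a gene taken as 1 to 6 fragments, 74.4% of 7332 low genes then held whole multiples. The tolerance was 0.06 of the lowest value, so it was wider in fragments where that value was taken as more of them. The share that passes by chance was not computed, so the 74.4% does not check the depths. FPKM sums were 686133.2 to 729564.0 per library. A gene was tested if 3 or more libraries reached 1 FPKM, with limma 3.58.1 in R 4.3.3 on log2(FPKM + 1), without a replicate block. TMM factors, an alternative scaling, were computed from the method's published formula. Simulated data held 14344 genes, with 50 changed at each of the sizes that follow and no others. Of these, limma called 14% at log2 0.5, 84% at log2 1, 98% at log2 2 and 100% at log2 3. Of its 157 calls, 9 were false. In the data 3971 genes were called, so the adjusted threshold was less strict there. The simulated shares therefore do not give the sensitivity of this comparison. Coordinates and exons came from GENCODE release 29 (29542 identifiers matched), promoters from RefSeq. Genes named outside the members were the other enzymes of the routes, up to 4 per list with the smallest adjusted p, MYC, MAX, MYCN and genes starting within 1000 bases on the opposite strand. Members, lists and tests were chosen with earlier results of these data known. Some genes that this rule names are not reported here.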

Additional observations from a re-analysis of the deposited data

How the results depend on the processing

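Over 16 alternatives (pseudocount 0.1, a mean of 5 FPKM or more, no filter, TMM, quantile or protein-coding scaling, trend and robust on, protein-coding genes alone, replicate block, depth as covariate, and each library left out), the members' log2 fold changes stayed below 0 in all of them. Of 160 such values, 138 kept their side of the threshold and 22 lost it. The number of genes called was 3971, against 61 with depth as a covariate and 2340 to 3416 with 1 library left out (2340 without fluvastatin replicate 0, 2641 without fluvastatin replicate 2). The number of members that fell was 9, against 0 with depth as a covariate and 7 to 8 with 1 library left out. With depth as a covariate, 7 members and 2738 of 14344 genes had an unadjusted limma p below 0.05. Whether the numbers of the labels pair the libraries cannot be settled from these values. Deviations of same-numbered libraries correlated at -0.002, 0.085 and 0.084, and those of unlike numbers at -0.136 to 0.058. Not every library correlated best with its own number. With the replicate block 3154 genes were called and 7 members fell. The IMPDH2 to IMPDH1 log2 ratio, at 0.00, was -0.007 with a pseudocount of 1 and ran from -0.085 to 0.062 with 1 library left out. PRPS1 to PRPS2, at 0.059, ran from -0.057 to 0.141, and CTPS1 to CTPS2, at -0.866, from -1.031 to -0.753. With 1 library left out CTPS2 ran from -0.225 to 0.018 (0.018 without fluvastatin replicate 0) and MAX from -0.132 to 0.067. MAX was at 0.067, 0.002 and 0.012 when control replicate 0, control replicate 1 or fluvastatin replicate 0 was left out, and PRPSAP2 at 0.008 with depth as a covariate. The causes were not tested.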

Other observations

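Of 6 nucleoside transporters, which carry salvage substrates across membranes, 2 were tested and both fell after fluvastatin, with 1 to 2 that fell when 1 library was left out. SLC29A2 fell 1.74-fold from 6.34 ± 0.2745 to 3.65 ± 0.395 FPKM (SD, n = 3 each, limma adjusted p = 0.00464). SLC29A1 was at 28.1, 29.7 and 23.8 FPKM in the controls (replicates 0, 1 and 2) and at 18.8, 18.9 and 19.5 FPKM with fluvastatin. It fell 1.425-fold (limma adjusted p = 0.0171), a call lost when leaving out control replicate 0 or 1, or fluvastatin replicate 0 or 1 (0.052 to 0.0594, over a range of 0.00814 to 0.17). The concentrative transporters SLC28A1, SLC28A2 and SLC28A3 did not exceed 0.0221 FPKM in any library. SLC29A3, an equilibrative transporter below the filter on low values, is outside the rule by which genes were named. It was at 0.551, 0.477 and 0.473 FPKM in the controls and at 0.812, 1.133 and 0.918 FPKM with fluvastatin. Every treated library was thus above every control, which held for 21.9% of the genes tested. With no filter, 1 transporter of the list rose.

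MXD4, a MAX-binding repressor chosen after its values were seen, was at 3.49, 66.3 and 3.64 FPKM in the controls and at 10.04, 12.03 and 29.2 FPKM with fluvastatin, so control replicate 1 stood far above the other controls (limma adjusted p = 0.741). GMPR, the paralogue of GMPR2, was at 0.0401 to 0.22 FPKM over the 6 libraries and was not tested.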
